A study of Arabidopsis thaliana with 6 samples.

Results

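The genes described here encode 10 UDP-glycosyltransferases (UGTs) of Arabidopsis thaliana: UGT74E2, UGT85A1, UGT75B1, UGT73B2, UGT73B3, UGT73B4, UGT73B5, UGT73C1, UGT73C5 and UGT73C6. They were chosen as a list of loci, with earlier results of these data known. Each of the 10 was found on the array, with 1 probe each among 21500 probes, of which 21342 stand for 1 gene each. Another 57 probes on the array belong to other UGT genes. Expression was measured on 6 arrays with 2 colours, with the SA-treated or overexpressing plant in the Cy5 channel and its control in the Cy3 channel. Salicylic acid (SA), a plant defence hormone, was applied at 5 mM before 4 of the arrays, which cover 2, 5, 10 and 24 h at 1 array each, and the Cy3 plants there were untreated; the labels give the ecotype of these plants as Columbia. The other 2 arrays compare plants that overexpress SIBA (AT3G56710, the RefSeq table's SIB1, whose product binds a plastid sigma factor) with vector control plants. The overexpressors are CA32F3, called line 1 here, and CA32F4, called line 2; the labels state neither their ecotype nor the promoter of the construct nor how many plants were pooled. All plants were 28 days old and were sampled whole, without roots. The dyes were not swapped, so a probe that favours 1 dye is shifted the same way on every array.

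Family 1 UGTs move a sugar, in most cases glucose, from a UDP-sugar to a small molecule. The acceptors include plant hormones, flavonoids and other secondary metabolites, and foreign compounds such as herbicides and fungal toxins. The added sugar makes the acceptor more soluble, commonly ends its activity, and lets it be stored in the vacuole. SA is itself an acceptor, which other members of the family convert into SA glucoside and SA glucose ester. In the chromosomal order of the RefSeq table, UGT73B4 lies next to UGT73B5, UGT73B3 lies near UGT73B2 and UGT73B1, and UGT73C1, UGT73C5 and UGT73C6 belong to 1 run of UGT73C genes. UGT85A1 ends a run of UGT85A genes, UGT75B1 lies near UGT75B2, and UGT74E2 lies next to UGT74E1. No probe was assigned to UGT74E1, so it is missing from the comparison with relatives. The probes' sequences were not analysed here, so how far a probe also binds RNA of a neighbouring relative was not tested.

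The labels and tissue were checked first. SIB1 had log2 ratios of 5.25 and 5.59 in lines 1 and 2. SIB1 was also above the untreated control at 2, 5 and 10 h of SA (4.46, 3.71 and 2.89), and its spot was left out at 24 h. The 5 shoot markers, genes of photosynthesis, were among the bright probes (65.6th to 100th percentile of the control channel). The flower and seed markers (3 each) stayed below the 35th percentile, and 3 of the 4 root markers below the 38th. The exception was the root and hypocotyl beta-glucosidase gene PYK10 (82.3rd to 91.0th percentile), with log2 ratios of -0.91, -1.22, -1.60 and -0.51 at 2, 5, 10 and 24 h of SA and of 0.03 and 0.81 in lines 1 and 2; its part in the UGT results was not tested. Whole shoots were measured, so more cells of a type and more RNA per cell cannot be told apart. In the SA series the median Cy5 signal, less local background, was 21.5 at 2 h, which is dim, and 206.5, 300 and 404 at the later times; both overexpressor arrays were dim as well (79 and 84). The labels do not say whether the RNAs came from separately grown plants, so the p-values cover only a spread among arrays, part of which may be technical. For the SA arrays it is the spread between times.

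With SA, most of these genes were higher than in untreated plants, and the ratios were largest in the first 10 h. After normalization all 10 were at least 2-fold higher in SA-treated than in untreated plants at 2, 5 and 10 h. At 24 h 5 of the 10 still were. The same fold was reached by 3.84%, 6.09%, 7.30% and 5.31% of all probes at these times. Without background correction UGT73C6 was below 2-fold at 2 h (log2 ratio 0.98) and 10 h (0.82), and UGT73C5 at 10 h (0.74). Under median centring UGT73C5 was just below 2-fold at 10 h (0.97). The median log2 ratio of the 10 genes was 2.75, 3.46, 2.91 and 1.04 at 2, 5, 10 and 24 h. Averaged over the 4 arrays, 6 of the 10 passed the test as higher and 0 as lower, against 2.80% of 21280 probes higher and 0.954% lower (3.75% in either direction). All 10 had an unadjusted p under 0.05, as had 26.0% of all probes. A call needed a Benjamini-Hochberg adjusted p under 0.05 in limma's moderated test of the mean log2 ratio against 0, and a mean of at least 2-fold. The 6 were UGT74E2, UGT85A1, UGT73B3, UGT73B5, UGT73B2 and UGT73B4. The other 4, UGT75B1, UGT73C1, UGT73C5 and UGT73C6, had adjusted p-values of 0.0520 to 0.156. All 10 genes lay above 0 on all 4 SA arrays, as did 19.6% of all probes. Because the list was drawn up with earlier results of these data known, these counts and shares describe it and do not test it. With 1 array per time, the spread in this test is the spread between times, so a gene whose ratio changed with time had a larger error.

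**Figure D1:**
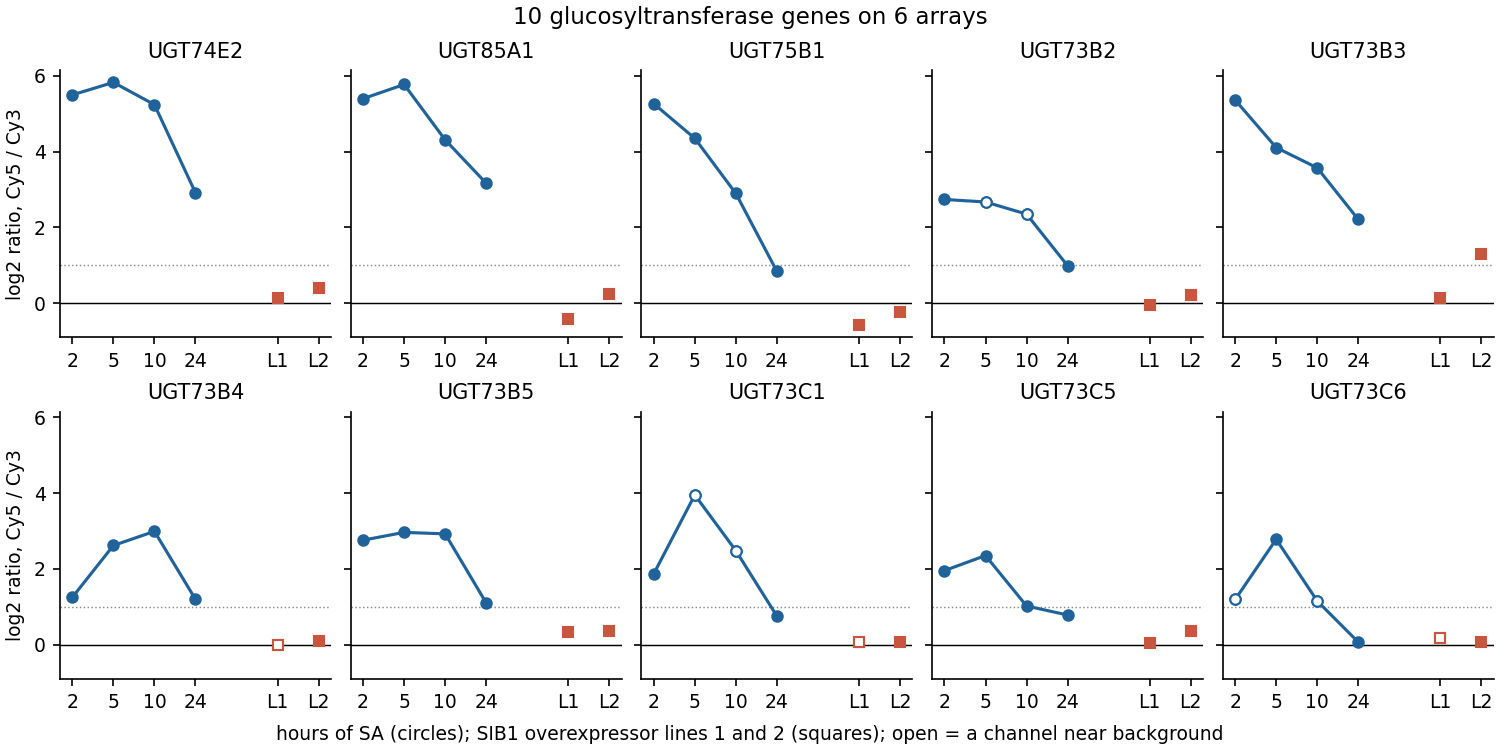
Log2 ratio of the Cy5 plant over its Cy3 control (y axis) for the 10 genes, 1 panel each, at 2, 5, 10 and 24 h of SA (blue circles) and in SIB1 overexpressor lines 1 and 2 (L1 and L2, orange squares); 1 array per point, dotted line at 2-fold, open symbols where a channel was near background. Every gene has its lowest SA value at 24 h, and UGT73B3 in line 2 (1.29) is the single overexpressor value above the 2-fold line.

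The largest mean ratio among the 10 belonged to UGT74E2 (AT1G05680), an enzyme that glucosylates the auxin precursor indole-3-butyric acid and is known to be induced by hydrogen peroxide. Its mean spot signal, before background was subtracted, was 4730, 17700, 15700 and 3970 in SA-treated plants at 2, 5, 10 and 24 h, against 94.7, 267, 287 and 299 in the untreated plants of the same arrays. The log2 ratios were 5.50, 5.83, 5.24 and 2.91, or 45.2-fold, 56.8-fold, 37.7-fold and 7.52-fold. The channels thus lay far apart at every time, and the gap was smallest at 24 h. On the 5 h array UGT74E2 had the second highest ratio of all probes, on the 10 h array the third, and on the 24 h array the 72nd. Its mean over the 4 times was 4.87 ± 1.33 (SD, n = 4 arrays), with an adjusted p of 0.0213 in limma. In the overexpressors the signals were 58.9 and 75.9 in lines 1 and 2, against 66.5 and 62.0 in the vector controls. The log2 ratios were 0.13 and 0.40. The signals less background were low, at 15.5 and 40.0 in lines 1 and 2, against 6.87 and 17.9 in the vector controls. A constant added to both channels before the log was taken shrinks the ratios of such dim spots. The mean over both lines ran from -0.13 under median centring to 0.60 with the ratio in the authors' deposited table. Whether UGT74E2 differed from its controls there is thus uncertain.

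UGT85A1 (AT1G22400), which O-glucosylates the cytokinin trans-zeatin, was nearly as high. Its signal was 7850, 49200, 21100 and 9020 in SA-treated plants at 2, 5, 10 and 24 h, against 144, 794, 737 and 536 in untreated plants. The log2 ratios were 5.40, 5.77, 4.31 and 3.16, so that at 24 h it was still 8.96-fold higher, the highest 24 h value of the 10 genes. The mean was 4.66 ± 1.18 (SD, n = 4) with an adjusted p of 0.0193. In the overexpressors its log2 ratio was -0.42 for line 1 but 0.23 for line 2, of opposite sign.

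UGT75B1 (AT1G05560), known as a glucosyltransferase of p-aminobenzoate and as a protein of the forming cell plate, was as high as these genes at 2 h and far lower than them at 24 h. Its signal was 9300, 24500, 11200 and 3640 in SA-treated plants at 2, 5, 10 and 24 h, against 175, 1040, 1000 and 1080 in untreated plants. The log2 ratios were 5.26, 4.35, 2.89 and 0.84. Its 24 h value lay 4.43 below its highest value, the widest such gap of the 10 genes, whose gaps ran from 1.57 to 4.43. The mean of 3.34 ± 1.93 (SD, n = 4) had the widest spread of the 10 and missed the test (adjusted p = 0.0697). It lay below 0 in both overexpressor lines, with log2 ratios of -0.58 and -0.23.

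The UGT73B genes include enzymes that act on flavonols and on foreign compounds, and UGT73B3 and UGT73B5 are known to contribute to resistance against the bacterium Pseudomonas syringae. All 4 members measured among the 10 were called higher. UGT73B3 (AT4G34131) was the highest of them, with signals of 6130, 5060, 6960 and 2650 in SA-treated plants at 2, 5, 10 and 24 h, against 123, 254, 376 and 334 in untreated plants. Its log2 ratios were 5.36, 4.11, 3.57 and 2.21, each lower than the one before, with a mean of 3.81 ± 1.31 (SD, n = 4; adjusted p = 0.0277). UGT73B3 was also the single gene of the 10 at least 2-fold higher in an overexpressor: its signal was 355 in line 2, against 82.2 in the vector control, and 94.1 in line 1, against 75.2. The log2 ratios were thus 1.29 in line 2 and 0.14 in line 1, and the lines did not agree in size. PYK10 was also higher in line 2 (0.81) than in line 1 (0.03), and its part in this was not tested.

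UGT73B2 (AT4G34135), a flavonol glucosyltransferase, lies near UGT73B3 and was dimmer. Its log2 ratios at 2, 5, 10 and 24 h were 2.74, 2.67, 2.35 and 0.98, with a mean of 2.18 ± 0.817 (SD, n = 4; adjusted p = 0.0318). At 5 and 10 h the untreated channel was marked as near background, so the fitted ratios of 6.36-fold and 5.09-fold rest on a dim control value. This mark was given where the scanner software did not count a channel as well above background or used a surrogate value for it. For such spots a bound was computed per channel after normalization of brightness between channels, and it stays open to dye bias. For UGT73B2 the bound equalled the fitted ratio, so it is not a separate lower limit. The 2 h control was not so marked, yet its signal less background was 8.04, against 14.3 and 15.6 at 5 and 10 h. The 2 h log2 ratio is thus uncertain too: it ran from 2.38 without background correction to 5.51 with the scanner software's own ratio. In the overexpressors the log2 ratios were -0.05 and 0.22.

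UGT73B4 (AT2G15490), known to conjugate metabolites of the explosive trinitrotoluene, and its neighbour UGT73B5 (AT2G15480) had close values from 5 h on and differed at 2 h. UGT73B5 had log2 ratios of 2.76, 2.96, 2.92 and 1.10 at 2, 5, 10 and 24 h, a plateau over the first 3 times. UGT73B4 had 1.25, 2.62, 2.99 and 1.19, with its highest ratio at 10 h. At 2 h the UGT73B5 signal was 567 in SA-treated and 94.4 in untreated plants, and the UGT73B4 signal was 144 in SA-treated and 88.3 in untreated plants. The means were 2.43 ± 0.895 for UGT73B5 (SD, n = 4; adjusted p = 0.0307) and 2.01 ± 0.926 for UGT73B4 (SD, n = 4; adjusted p = 0.0453). The difference between the genes at 2 h rests on 1 array and was not tested. In lines 1 and 2 the log2 ratios were 0.33 and 0.36 for UGT73B5 and -0.02 and 0.10 for UGT73B4. The line 1 signal of UGT73B4 was marked as near background.

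None of the UGT73C genes was called, and their fitted ratios were highest at 5 h, though some rest on an untreated channel near background. UGT73C1 (AT2G36750), which acts on cytokinins and on trinitrotoluene metabolites, had log2 ratios of 1.87, 3.95, 2.48 and 0.75 at 2, 5, 10 and 24 h. Its mean was 2.26 ± 1.33 (SD, n = 4; adjusted p = 0.0729). The untreated channel was marked as near background at 5 and 10 h, where the computed bounds were 13.1-fold and 4.95-fold. These bounds hold only for the processing used here. Without background correction the log2 ratios were 3.69 and 1.97 at 5 and 10 h, which lie below the bounds. At 24 h, with both channels measured, its signal was 148 in SA-treated and 83.7 in untreated plants.

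UGT73C5 (AT2G36800), which inactivates brassinosteroids and the fungal toxin deoxynivalenol, had log2 ratios of 1.95, 2.35, 1.02 and 0.78 at 2, 5, 10 and 24 h, a mean of 1.52 ± 0.747 (SD, n = 4) and an adjusted p of 0.0520, just past the threshold. UGT73C6 (AT2G36790), a brassinosteroid and flavonol glucosyltransferase next to it, had 1.19, 2.78, 1.15 and 0.06, a mean of 1.30 ± 1.12 (SD, n = 4) and an adjusted p of 0.156. At 24 h the UGT73C6 signals were almost equal, with 94.7 in SA-treated and 87.0 in untreated plants. Its untreated channel was marked as near background at 2 and 10 h. At 2 h the mark came from a surrogate value, since 100% of probes on that array counted as well above background. The fitted ratios at 2 and 10 h, 2.28-fold and 2.22-fold, equalled the bounds, which are thus not separate lower limits. In lines 1 and 2 the log2 ratios were 0.06 and 0.07 for UGT73C1 and 0.05 and 0.34 for UGT73C5, and UGT73C6 had 0.06 in line 2. All lay within signals of 48.2 to 68.4 in the overexpressors and 62.5 to 67.9 in the vector controls. UGT73C6 was near background in both channels of line 1, so no ratio is given there. The vector control of UGT73C1 was also marked as near background on the line 1 array, so its ratio there is uncertain. On that array such marks came from surrogate values, since 100% of probes counted as well above background in both channels.

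**Figure D2:**
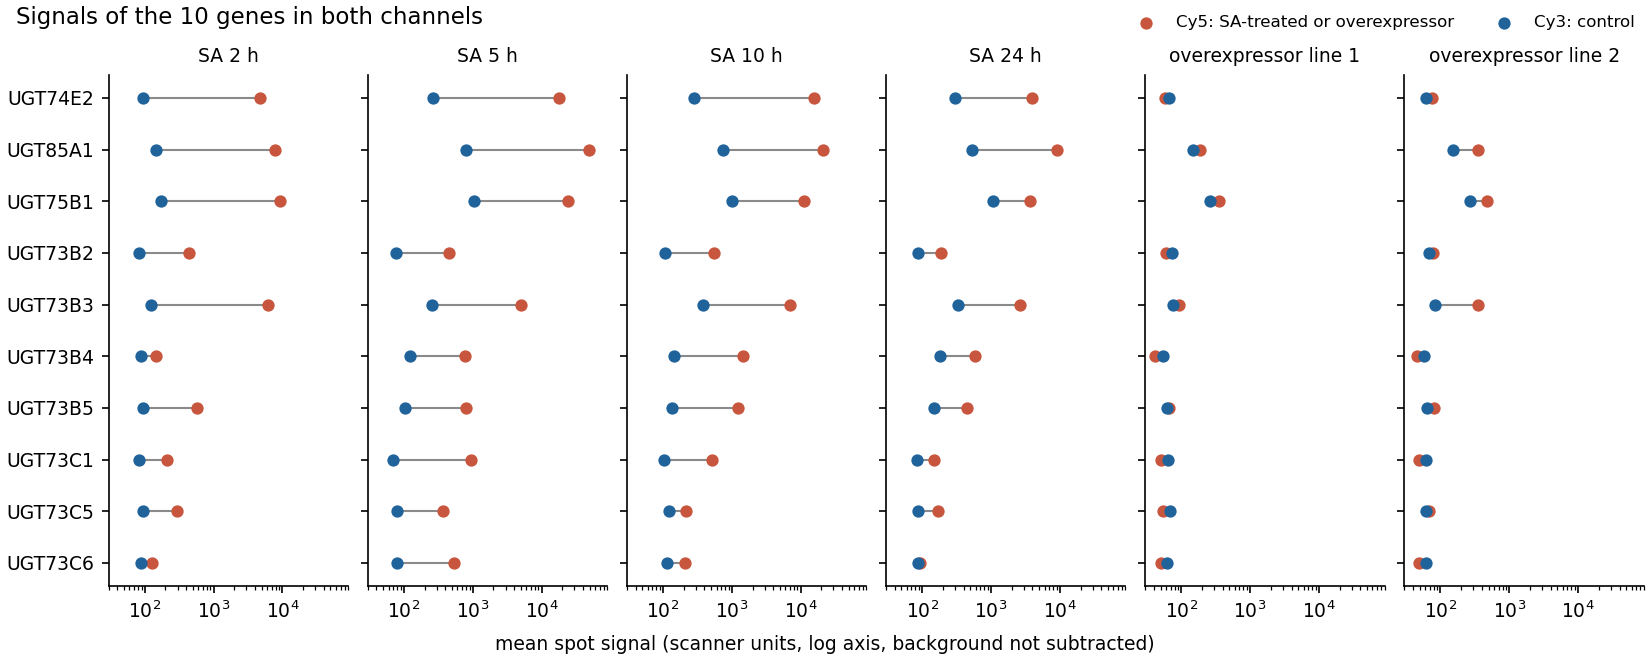
Mean spot signal in scanner units (x axis, log scale, background not subtracted) of the 10 genes in the Cy5 channel (orange, SA-treated or overexpressor) and the Cy3 channel (blue, control) of each of the 6 arrays, joined by a grey line per gene. UGT74E2, UGT85A1, UGT75B1 and UGT73B3 are the 4 brightest genes in the SA-treated channel, and in the overexpressors both channels lie near the low end for most genes.

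In order of their mean SA ratio the genes ran UGT74E2, UGT85A1, UGT73B3, UGT75B1, UGT73B5, UGT73C1, UGT73B2, UGT73B4, UGT73C5 and UGT73C6. Each of the 9 gaps between neighbours in this order, 0.08 to 0.90 on the log2 scale, was smaller than the larger SD of the pair. These SDs are spreads over times that the genes share, and differences within arrays were not tested. UGT85A1, for example, lay above UGT73B3 on all 4 SA arrays, but by little at 2 h (5.40 and 5.36). With 2 settings described below the order at 2 h was reversed: 5.96 and 6.06 with a constant of 16, and 6.48 and 6.74 with the scanner software's ratio. The first 4 were also the brightest in the SA-treated channel. A constant of 50 was added to both channels before the log was taken, which draws the ratios of dim probes towards 0. With a constant of 16 the means were 3.26 for UGT73C1, 3.06 for UGT73B2 and 3.02 for UGT73B5, and UGT75B1 stayed above them at 3.49. With the scanner software's own ratio, which also differs in background and dye correction, they were 4.53, 3.99 and 3.61, and UGT75B1 lay below them at 3.58. At 2 h the software's log2 ratios of the 10 genes exceeded those given here by a median of 2.62, against 0.23 at 24 h; which of these steps accounts for this was not tested. For UGT74E2 at 2 h the log2 ratio was 5.50 as reported, 6.54 with a constant of 16 and 8.37 from the software.

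The ratios at 24 h were the lowest of the series. All 10 had their lowest SA ratio at 24 h (8 of 10 without background correction), which holds for 25.8% of all probes with values on the 4 SA arrays and for 53.4% of the 247 of them with a mean ratio of at least 4-fold. Of the 7 genes with no channel marked as near background on the SA arrays, 2 were highest at 2 h (UGT75B1 and UGT73B3). A further 4 were highest at 5 h (UGT74E2, UGT85A1, UGT73B5 and UGT73C5) and 1 at 10 h (UGT73B4). On the 2 h array, however, 100% of probes counted as well above background in both channels. The untreated signal less background was low there, at 7.07 for UGT73C5, 9.53 for UGT74E2, 11.5 for UGT73B5 and 12.9 for UGT73B4. Peak times that rest on such 2 h values are uncertain. Which of 2 and 5 h was higher depended on how the dim 2 h array was processed: of the 7, 5 were highest at 2 h under median centring and 6 with the software's ratio, but 2 with the ratio in the authors' deposited table. UGT73B4 was highest at 10 h in each of these. Genes still at least 2-fold higher on all 4 SA arrays were UGT74E2, UGT85A1, UGT73B3, UGT73B4 and UGT73B5, 5 of the 10, against 1.71% of 19736 probes. With an offset of 16, the software's ratio or the authors' ratio, 8 of the 10 were at least 2-fold higher at 24 h.

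The slope of the log2 ratio on log2 hours, fitted with limma over the 4 SA arrays, was negative for 9 of the 10 genes and passed the test for 0 of them (0% of 21280 probes were called). At an unadjusted p under 0.05 there were 4 of the 10 genes, against 4.61% of all probes (980). The steepest slopes were -1.25 ± 0.133 per doubling of time for UGT75B1 (SE) and -0.85 ± 0.0689 for UGT73B3 (SE), both with an adjusted limma p of 0.961. Both genes had a lower ratio at each time than at the one before. For UGT73B4, with its highest ratio at 10 h, the slope was 0.02.

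The overexpressor arrays ask whether these genes change with SIB1, and the test called none of them. Over lines 1 and 2 the means of the 10 genes ran from -0.41 for UGT75B1 to 0.71 for UGT73B3, with adjusted limma p-values of 0.664 to 0.862. The test called 0 of 10 and 0% of 21482 probes. At an unadjusted p under 0.05 there were 995 probes (4.63%) and 1 of the 10 genes, UGT73B5, with a mean of 0.35 ± 0.0233 (SD over 2 lines). Of the 10, 6 were above 0 in both lines, against 32.4% of all probes. Among these 6, UGT73C6 had both channels of line 1 near background, and UGT73C1 had its vector control near background there. Of the 10, 1 was below 0 in both lines and 3 differed in sign. None reached 2-fold in line 1 and 1 did in line 2, against 0.191% and 1.88% of all probes. The direction of these small ratios rested on the loess normalization: under median centring 8 of the 10 means changed sign, and UGT73B3 and UGT73B5 did not. In that setting UGT73B4 (-0.50), UGT73C1 (-0.49) and UGT73C6 (-0.43) had adjusted limma p-values of 0.0450, 0.0424 and 0.0457. Their means fell short of 2-fold, so they were not called. Of 21482 probes, 12889 had an unadjusted p under 0.05 in that setting. For UGT75B1, below 0 in both lines after loess, the signals before normalization were 356 and 477 in lines 1 and 2, against 264 and 266 in the vector controls. The number of arrays and their low signal limit the precision here.

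**Figure D3:**
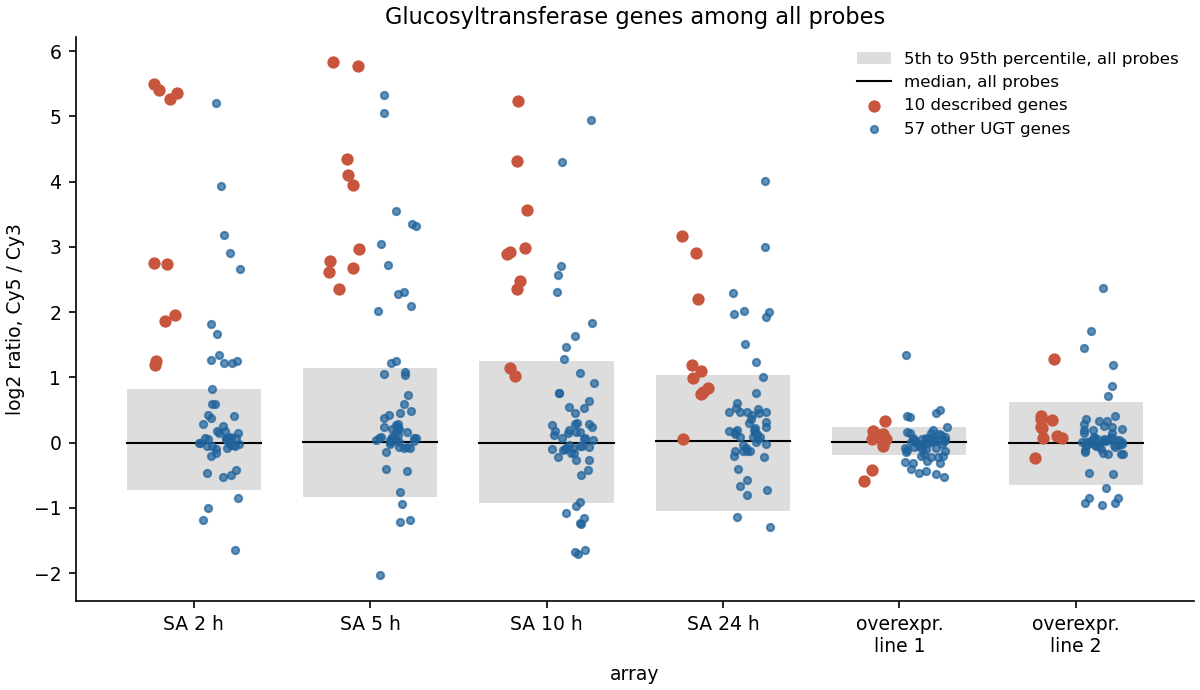
Log2 ratios (y axis) of the 10 described genes (orange) and of 57 other UGT genes (blue) on each of the 6 arrays (x axis), with the 5th to 95th percentile of all probes as a grey band and their median as a black line; points are spread sideways for sight. All 10 lie above the band at 2 and 5 h and 8 of them at 10 h, and in the overexpressors most lie within or near it.

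The SA and overexpressor means were compared in a fit over all 6 arrays. Each of the 10 genes was higher with SA than in the overexpressors, by log2 differences of 1.18 for UGT73C6 to 4.75 for UGT85A1, but none was called (adjusted limma p of 0.125 to 0.582). At an unadjusted p under 0.05 there were 9 of the 10 genes, against 12.2% of 21482 probes; after adjustment 0.0652% of the probes were called, 0.0605% as higher and 0.00466% as lower. UGT76B1, a UGT outside the list, was among the calls, with a difference of 4.75 (adjusted p = 0.0442). The files of both overexpressor arrays share extra columns with the 2 h array that the other SA files lack, and with this column layout as a covariate no probe was called.

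Most of the closest relatives of these genes were not called. Of 19 genes on the array from the UGT73, UGT74, UGT75 and UGT85 families, 2 were called higher with SA, 1 lower and 16 were not called, against 2.80% of all probes higher and 0.954% lower, and the median of their mean log2 ratios was 0.29, against 2.35 for the 10 genes and -0.01 for all probes. Among all 57 other UGT genes 6 were called higher and 2 lower, with a median of 0.11. The list described here was drawn up with earlier results of these data known, so these medians describe the lists and do not test them.

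In the UGT85A run, UGT85A1 was the one gene called. Its neighbours UGT85A2, UGT85A3, UGT85A5 and UGT85A7 had mean log2 ratios of 0.50, -0.02, -0.20 and 0.05, and UGT85A4, elsewhere in the genome, had -0.17; none was called. In the UGT73C run, UGT73C3 had 0.82, 2.01, 0.91 and 0.30 at 2, 5, 10 and 24 h, highest at 5 h like UGT73C5. UGT73C2 and UGT73C4, which lie between UGT73C1 and UGT73C3, had means of -0.03 and 0.29 and reached at most 0.09 and 0.59 at any time. Genes of 1 run thus had quite different values at 5 h. The log2 ratio there was 3.95 for UGT73C1, whose untreated channel was near background, against 0.08 and 0.25 for UGT73C2 and UGT73C4.

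UGT73B1, next to UGT73B2, was above its control at 2 h and close to it at 24 h, with log2 ratios of 2.66, 1.08, 0.63 and -0.13 at 2, 5, 10 and 24 h (mean 1.06, adjusted p = 0.243). UGT75B2, near UGT75B1, differed from it early. It had log2 ratios of 0.07, 3.32, 1.83 and 0.46, against 5.26, 4.35, 2.89 and 0.84 for UGT75B1, so at 2 h UGT75B1 was far above its control and UGT75B2 was not. Its mean of 1.42 was not called (adjusted p = 0.216). These differences between genes rest on 1 array per time and were not tested.

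**Figure D4:**
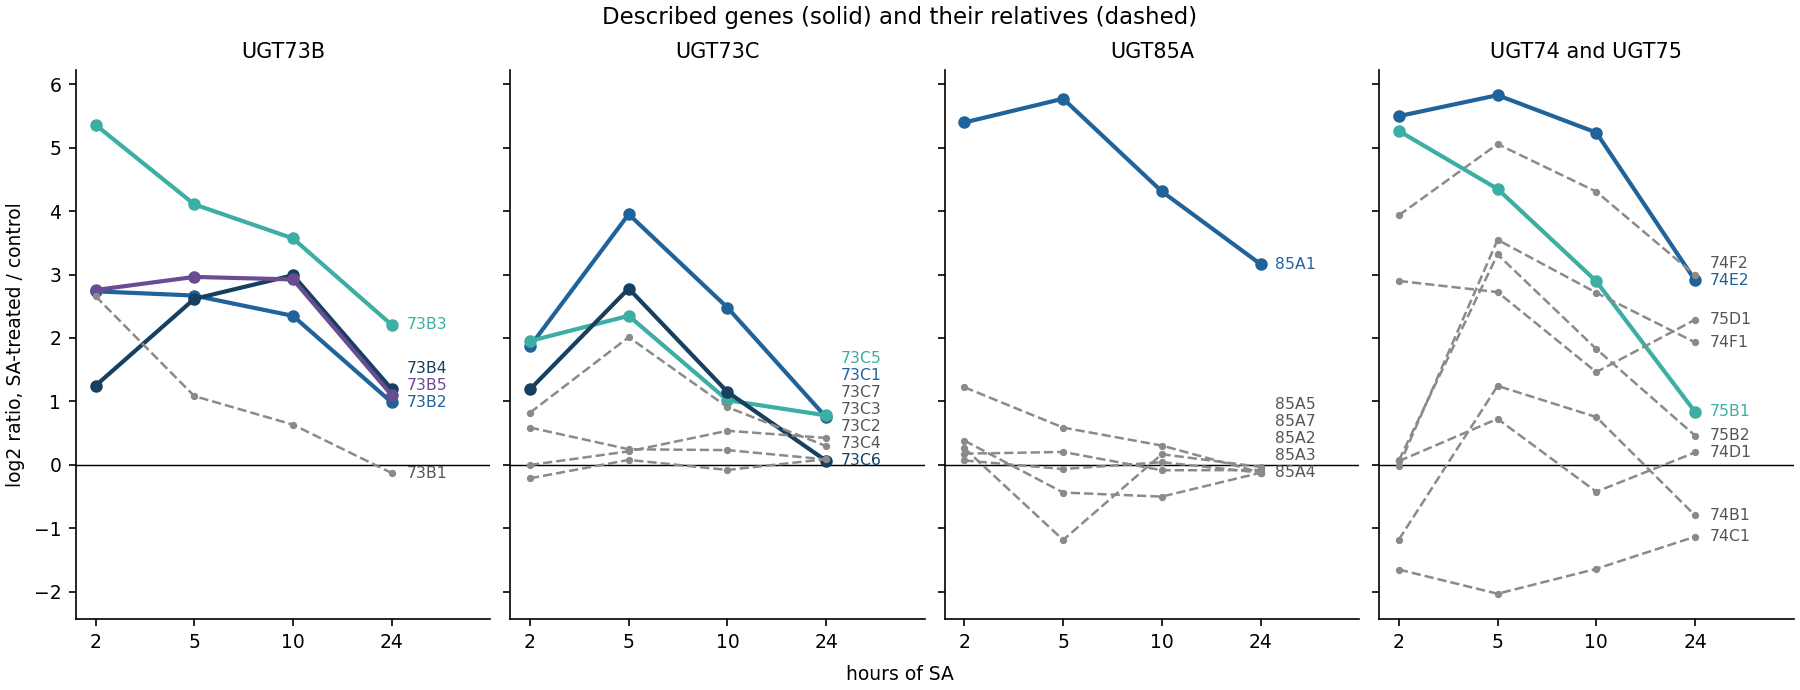
Log2 ratio of SA-treated over untreated plants (y axis) at 2, 5, 10 and 24 h (x axis) for the described genes (solid lines) and relatives on the array (dashed grey), in 4 panels by family; labels leave out the prefix UGT and are moved apart where values are close. UGT85A1 lies far above its UGT85A relatives, and UGT75B2 starts near 0 at 2 h and reaches 3.32 at 5 h.

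The enzymes that glucosylate SA itself were among the strongest of the other UGT genes. UGT76B1 (AT3G11340), which glucosylates SA and the defence signals isoleucic acid and N-hydroxypipecolic acid, had log2 ratios of 5.20, 5.32, 4.94 and 4.01 at 2, 5, 10 and 24 h (mean 4.87 ± 0.595, SD, n = 4; adjusted p = 0.0112). UGT74F2 (AT2G43820), which makes SA glucose ester, had 3.93, 5.06, 4.31 and 2.99 (mean 4.07, adjusted p = 0.0160). UGT74F1 (AT2G43840), which makes SA glucoside, had -0.02, 3.55, 2.71 and 1.93, so its ratio was near 0 at 2 h and well above at later times, and its mean of 2.04 was not called (adjusted p = 0.117). The 24 h value of UGT76B1 lay 1.31 below its highest log2 ratio, a narrower gap than that of any of the 10 genes, where the narrowest was 1.57 for UGT73C5; this difference was not tested.

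Further calls among the other UGT genes were UGT87A2, which affects flowering time (2.40), UGT72B1, which conjugates chlorinated phenols (2.37), UGT75D1, which acts on indole-3-butyric acid (2.34), and the abscisic acid glucosyltransferase gene UGT71B6 (1.63). UGT71B6 was the single one of these also above its control in both lines (1.34 and 0.87). Called lower were UGT74C1, an enzyme of glucosinolate synthesis (-1.61), and UGT78D1, a flavonol rhamnosyltransferase (-1.15).

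Likeness to UGT74E2 was measured as the root mean square difference of the log2 ratios over the 6 arrays, among 19577 genes. The 5 nearest were UGT85A1 (0.46), UGT76B1 (0.54), the NAC transcription factor gene ATAF2 (0.57), NIMIN1, whose product binds the SA receptor NPR1 (0.60), and the tau glutathione transferase gene GSTU24 (0.63). The arrays share their dye orientation and 3 of them are dim, so part of such likeness can come from the arrays; that part was not tested.

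The number of calls depended on which SA arrays were included. With the 2 h array left out 3 of the 10 genes were called; leaving out 5 h gave 0, leaving out 10 h gave 0 and leaving out 24 h gave 4. All 10 means stayed above 0 in each of 14 settings, the lowest being 0.80 for UGT73C6 without the 5 h array. UGT73C6 passed the adjusted p under none of them. UGT75B1, UGT73C1 and UGT73C5 each passed in 5 of 9 settings that kept all arrays, and UGT73B4 in 8.

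**Figure D5:**
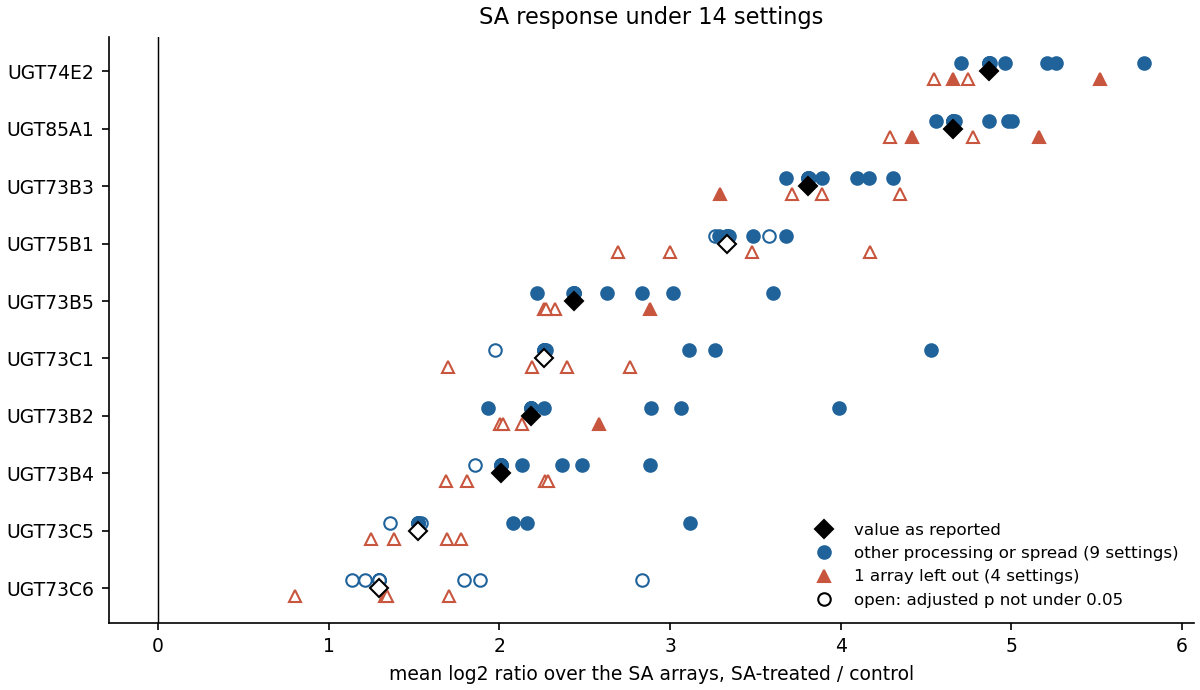
Mean log2 ratio of SA-treated over untreated plants (x axis) for the 10 genes (y axis, ordered by the reported mean) as reported (black diamonds), under 9 other settings of processing or spread (blue circles) and with 1 array left out (orange triangles); filled symbols have an adjusted p under 0.05. Every point lies above 0, the dim genes UGT73C1 and UGT73B2 move most to the right, to 4.53 and 3.99, and most triangles are open.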

How the data were processed

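RNA was extracted with Trizol and amplified linearly before labelling, per the labels' protocols. The deposited files of single arrays are, per the file headers, Agilent Feature Extraction output with spot intensity (mean signal, median local background) and a log10 ratio that the software normalized for dye; the headers used here state no settings. The authors' deposited series table gives another ratio, linear and Cy5 over Cy3 by comparison with the arrays (r = 0.946 to 0.993 on the log scale, medians 0.959 to 1.03), with normalization not stated. Signals were corrected with limma's normexp (offset 50) and loess within arrays, and outlier spots were left out (10 to 1722 per array, none of the 60 described). limma's lmFit and eBayes were applied to all probes with Benjamini-Hochberg adjustment, in R 4.3.3 with limma 3.58.1; figures used Python 3.11.15 and matplotlib 3.10.9. Probes needed values on at least 3 SA arrays, on both overexpressor arrays, or on 4 of 6 arrays, and signal well above background on at least 2 arrays. Tests against 0 used ratios to the Cy3 control of the same array, so the control channel enters their spread. The labels do not say whether control RNA was shared between arrays. The methods were tested on simulated data. Of the probes, 21342 had 1 locus, and a RefSeq table (TAIR10.1) held 21157 of the loci, and was used for names and neighbours; the files name no build. The members and gene lists were chosen with earlier results of these data known. The genes named were all 10 members, the highest and lowest relatives and other UGT calls, the SA glucosyltransferases, the 5 genes nearest to UGT74E2 and SIB1; the remaining relatives were named after their values were seen. Protein and promoter sequences were not analysed here.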

Additional observations from a re-analysis of the deposited data

How the results depend on the processing

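The SA mean kept its direction for the 10 genes in each of 130 gene and setting combinations; 97 stayed on the same side of the threshold, 18 lost the call and 15 gained it. Over all probes the SA mean gave 799 calls, 1264 with an offset of 16, 1386 with the scanner software's ratio, 1425 with the authors' ratio and 0 to 738 with 1 array left out: 0 without 5 h or 10 h (limma; 3617 and 4493 probes at an unadjusted p under 0.05) and 133 without 24 h. The split of 596 higher and 203 lower became 1040 and 86 under median centring and 893 and 532 with the authors' ratio. Of the 10 genes, 6 were called, with a range of 0 to 4 without 1 array and 5 to 9 in other settings. The overexpressor mean gave 0 calls, and 412 under median centring. The difference gave 14 calls, 93 under median centring, 81 with an offset of 16, 71 with the software's ratio, 35 with the authors' ratio, 34 where the variance follows brightness, 0 with column layout as a covariate and 0 to 61 with 1 array left out (0 without 5 h, 10 h or either line, with 1226 to 2714 probes at an unadjusted p under 0.05); of the 10 genes 0 were called, and 3 without the 24 h array. The counts at least 2-fold higher, under settings chosen after seeing the data, were 5 at 24 h and 8 with an offset of 16, the software's ratio or the authors' ratio; 0 in line 1 and 1 with the software's ratio; and 1 in line 2 and 2 with the software's ratio. The SA trend of UGT73B4 (0.02) turned to -0.14 with an offset of 16, -0.37 with the software's ratio and -0.054 with the authors' ratio, and ran from -0.66 to 0.76 with 1 array left out (-0.08 without 10 h). With 1 array left out the trends ran from -0.85 to 0.076 for UGT73B5, -1.41 to 0.33 for UGT73C1 and -1.19 to 0.046 for UGT73C6, each above 0 without 24 h. The overexpressor means turned under median centring to -0.13 for UGT74E2, 0.36 for UGT85A1, -0.24 for UGT73B2, -0.50 for UGT73B4, -0.49 for UGT73C1, -0.26 for UGT73C5, -0.43 for UGT73C6 and 0.19 for UGT75B1, and to -0.40 for UGT73B4 with the software's ratio. With 1 line left out they ran from -0.42 to 0.23 for UGT85A1, -0.050 to 0.22 for UGT73B2 and -0.017 to 0.098 for UGT73B4. With 1 line left, it is assumed to vary like the SA arrays. Fits without an array have fewer samples; the cause of the other changes was not tested. No paired analysis was possible because the labels give the compared groups no shared replicate numbers. The dim 2 h and overexpressor arrays limit ratios of genes near background.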
